A study of Mus musculus with 4 samples.

Results

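The genes described here are the mouse MHC class II genes and the genes that load peptide onto their products. The 10 members were chosen by symbol: H2-Aa, H2-Ab1, H2-Eb1, H2-DMa, H2-DMb1, H2-DMb2, H2-Oa, H2-Ob, Cd74 and Ciita. All 10 were found among the 29247 gene IDs of the count table, and all 10 were among the 18715 genes with enough reads to be tested. Liver macrophages were isolated by flow sorting from 8-week-old C57BL6J mice, and their messenger RNA was sequenced. The treated group is 3 libraries of Cxcr4+ macrophages from mice killed 72 h after an intraperitoneal dose of 300 mg/kg acetaminophen (APAP) in saline. APAP is a painkiller that kills hepatocytes at high doses. The other group is 1 library of control macrophages, and the labels give neither its sort gate nor whether saline was given. The effect of APAP and that of the Cxcr4 sort therefore cannot be told apart. Whether each library is 1 animal or a pool is not in the labels, and the p-values therefore describe only how far these libraries spread, which may be technical.

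MHC class II molecules present peptides from the endosome to CD4+ T cells. H2-Aa and H2-Ab1 encode the alpha and beta chains of I-A, and H2-Eb1 encodes the beta chain of I-E. C57BL/6 mice make no I-E alpha chain, so H2-Eb1 has no classical partner there. New class II pairs bind the invariant chain, the product of Cd74, which is cut in the endosome until a short fragment fills the groove. H2-DM, built from H2-DMa with H2-DMb1 or H2-DMb2, exchanges that fragment for peptide, and H2-O, built from H2-Oa and H2-Ob, restrains H2-DM. Ciita encodes the transactivator that the class II promoters need. Kupffer cells, which are liver-resident macrophages, carry class II, as do dendritic cells and B cells, and H2-O is known mainly from B cells and some dendritic cells.

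The libraries held 48282283, 52043418 and 56702837 counts after APAP and 49950909 in the control. At this similar depth the control had counts for 18793 genes, fewer than the 23376 to 23880 of the APAP libraries, and the part of this in rises from near 0, such as that of H2-Oa, was not tested. Levels are given as CPM, counts at a common library size after scaling by the trimmed mean of M-values (TMM). Fold changes come from edgeR's quasi-likelihood test over all 18715 genes, called at a Benjamini-Hochberg adjusted p of 0.05. That test called 44.3% of all genes, 25.4% higher and 18.9% lower in the APAP libraries, and the median log2 fold change over all genes was 0.08. An exact permutation test over these samples cannot go below 0.25, since the control is 1 of 4 libraries. The sort marker Cxcr4 was at 84.5, 132 and 101 CPM after APAP and 41.3 CPM in the control. The Kupffer cell marker Clec4f was high in both groups, which fits the labelled tissue: it stood at 2785, 4083 and 4670 CPM after APAP and 13080 CPM in the control.

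The class II genes moved in opposite directions. Of the 10 members, 6 fell, 3 rose and 1 did not pass the test, with a median log2 fold change of -1.44. Over all genes 18.9% fell and 25.4% rose, so the share of members that rose is close to the background. The 6 that fell were the classical chains H2-Aa, H2-Ab1 and H2-Eb1, the invariant chain gene Cd74, and H2-DMa and H2-DMb1. The 3 that rose were H2-Oa, H2-Ob and the transactivator gene Ciita. H2-DMb2 stood between these groups and did not pass. For 9 of the 10 members the control value was not within the span of the treated ones, against 84.8% of all genes tested, so that count is close to the background. For 6 members the control was above every APAP library, against 39.2% of all genes.

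**Figure D1:**
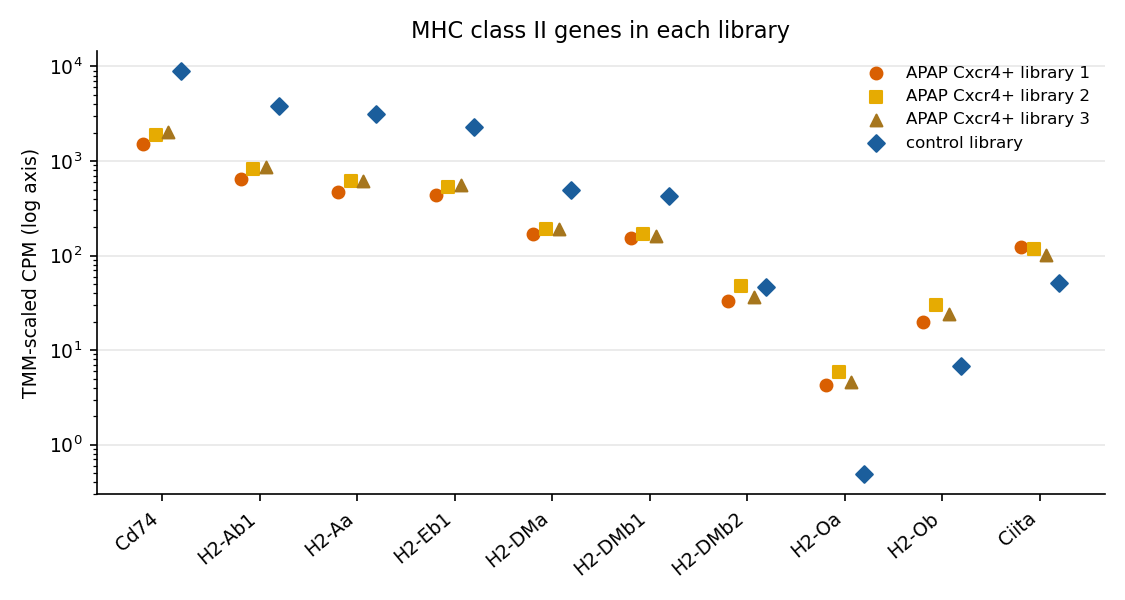
Level of each MHC class II gene in TMM-scaled CPM on a log axis, 1 point per library. The control (diamonds) lies above all 3 APAP libraries for Cd74, the 3 classical chains, H2-DMa and H2-DMb1, inside their range for H2-DMb2 at 46.4 CPM, and below them for H2-Oa, H2-Ob and Ciita.

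The promoter letters of members that fell, rose or did neither can be set side by side. RefSeq promoter windows of GRCm38.p6 (from 250 bases before to 50 bases after the start) were matched for 7 of the 10 members; those of H2-Ab1, Cd74 and Ciita were not matched. The lines below show 41 bases of the gene's own strand, 5′ to 3′. Capitals mark a Y box (TGATTGG, an inverted CCAAT bound by NF-Y), an X box form (AACNNATGATG, the region that RFX binds) or the cyclic AMP response element (TGACGTCA). The letters of the X box form are those that 4 member windows share, so their presence in these members is no finding.
H2-Aa, fell, chr17:34287867-34287907, minus strand: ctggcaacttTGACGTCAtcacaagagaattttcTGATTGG
H2-Eb1, fell, chr17:34305772-34305812, plus strand: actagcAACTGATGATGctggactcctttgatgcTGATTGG
H2-DMb2, did not pass, chr17:34145123-34145163, plus strand: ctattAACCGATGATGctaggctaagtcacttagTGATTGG
H2-Ob, rose, chr17:34238812-34238852, plus strand: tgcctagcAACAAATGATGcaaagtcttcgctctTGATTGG
H2-Oa, rose, chr17:34092300-34092340, plus strand: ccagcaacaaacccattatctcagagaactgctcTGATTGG

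The Y box was found in 6 of the 7 matched genes, the 5 shown and H2-DMb1, and in 7.82% of all 32851 promoter windows searched on both strands. Its first base lay 45 to 92 bases before the gene start. The X box form, taken from H2-DMb1, H2-DMb2, H2-Ob and H2-Eb1, was found in none of the other 3 matched genes and in 0.137% of all windows. It was built from every member window with ATGATG shortly before a Y box, so its absence there in the other members is no finding. Other forms of the X box were not searched for. Between X and Y boxes lay 18 bases in H2-DMb1 and H2-DMb2, 17 in H2-Eb1 and 15 in H2-Ob. The cyclic AMP response element was found in H2-Aa and in 1.79% of all windows. Neither window of H2-DMa held any of the 3. A match describes letters only.

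The classical chains and the invariant chain fell together and by nearly the same amount. H2-Aa stood at 471, 611 and 608 CPM after APAP and 3118 CPM in the control. All 3 APAP libraries lay far below the control, which was 5.53-fold higher than their mean of 563 ± 79.9 CPM (SD, n = 3). The log2 fold change was -2.47 (SE 0.16, adjusted p = 0.000933, edgeR). H2-Ab1 stood at 646, 818 and 866 CPM against 3779 CPM, which gave -2.28 as the log2 fold change (SE 0.17, adjusted p = 0.00107). H2-Eb1 stood at 433, 536 and 554 CPM against 2305 CPM, which gave -2.18 as the log2 fold change (SE 0.15, adjusted p = 0.001). For each of these chains the first APAP library was the lowest of the 4, and no APAP library came near the control.

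Cd74 was the most abundant member. It stood at 1508, 1889 and 2050 CPM after APAP and 8980 CPM in the control, where it alone took 403549 counts. Its log2 fold change was -2.31 (SE 0.18, adjusted p = 0.00107), and the control was 4.95-fold above the APAP mean. Together, H2-Aa, H2-Ab1, H2-Eb1 and Cd74 took 0.318%, 0.398% and 0.422% of all counts after APAP and 1.64% in the control. In bulk samples, fewer cells that carry class II and less class II RNA per cell cannot be told apart.

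H2-DM genes fell less than the classical chains, and the 2 beta genes differed. H2-DMa, the alpha chain of the peptide exchanger, stood at 168, 193 and 189 CPM after APAP and 498 CPM in the control. Its log2 fold change was -1.44 (SE 0.11, adjusted p = 0.00107). H2-DMb1 stood at 152, 168 and 159 CPM against 431 CPM, which gave -1.43 as the log2 fold change (SE 0.09, adjusted p = 0.000933). For both genes the control was 2.7-fold above the APAP mean, and the APAP libraries lay close to each other.

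H2-DMb2, the second H2-DM beta gene, stood at 33.3, 47.8 and 36.9 CPM after APAP and 46.4 CPM in the control. The control lay inside the APAP range, just under the second library. The log2 fold change was -0.24 (SE 0.20, adjusted p = 0.369) and turned to 0.04 when the trend of fold changes over transcript length was removed. Of the reads of both beta genes, H2-DMb2 took 1672 of 9293, 2570 of 11612 and 2161 of 11491 after APAP, at most 22.1%, and 9.72% in the control (95% Wilson interval 9.33% to 10.1%, counting error only). The transcripts H2-DMb1-201 and H2-DMb2-201 were 75.3% identical when aligned end to end, and 27.2% of the 50-base stretches of the first were found in the second. How reads shared by both genes were counted is not given in the sources used here, so this split is uncertain. With the counts of both genes summed, the log2 fold change was -1.26 (adjusted p = 0.00126).

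H2-O genes rose from low levels. H2-Oa stood at 4.32, 5.84 and 4.57 CPM after APAP and 0.49 CPM in the control. The control value rests on 22 counts (exact 95% Poisson interval 13.8 to 33.3), and every APAP library held 217 counts or more. The rise of 3.32 on the log2 scale (SE 0.34, adjusted p = 0.00177) was the steepest among the members. H2-Ob, the beta chain, stood at 19.9, 30.0 and 24.4 CPM against 6.83 CPM in the control, which gave 1.86 as the log2 fold change (SE 0.26, adjusted p = 0.00397). Both were highest in the second APAP library, as were H2-Aa, H2-DMa, H2-DMb1 and H2-DMb2. For both the control lay below every APAP library. Over all genes tested the control lay outside the APAP range in either direction for 84.8%, and above every APAP library for 39.2%. Even after APAP, H2-Oa and H2-Ob stood far below H2-DMa.

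Ciita rose while the classical chains fell. It stood at 123, 116 and 101 CPM after APAP and 51.8 CPM in the control. The log2 fold change was 1.13 (SE 0.14, adjusted p = 0.0026), or 2.19-fold on the group means. With the trend over transcript length removed it was 0.60 (adjusted p = 0.02). The trend, taken over exon length per gene, was 0.53 for Ciita, the largest value among the members. Ciita did not pass a test against a 2-fold change (adjusted p = 0.303). Over all of its alternatives the adjusted p ran from 2.92e-10 to 0.303. Transcripts from the different Ciita start sites, which are used by different cell types, are not separated in counts per gene.

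**Figure D2:**
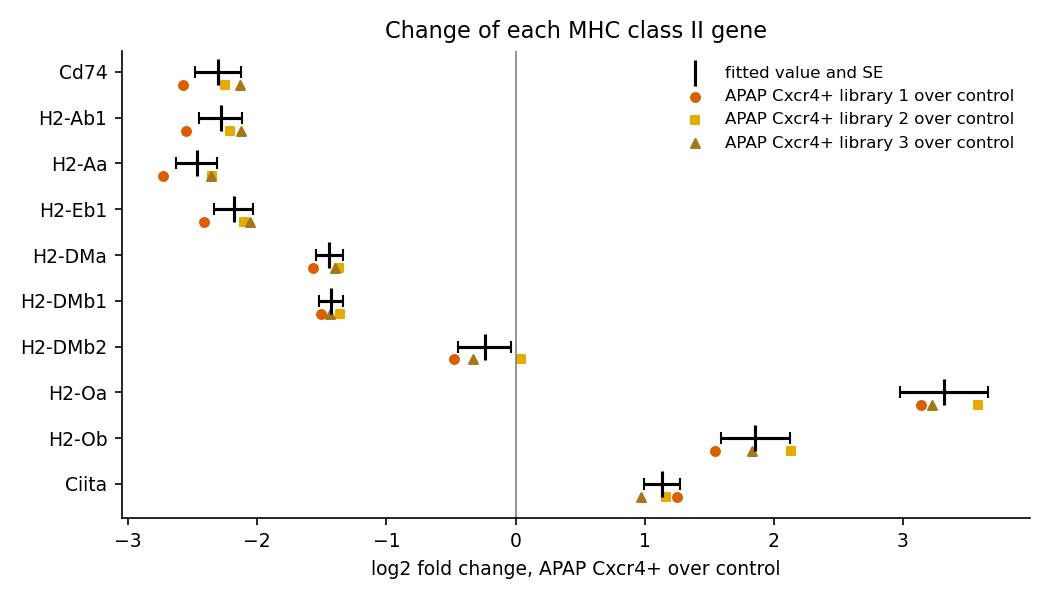
Log2 fold change of each MHC class II gene, APAP Cxcr4+ over control, with the edgeR value as a vertical tick, its SE as a bar and the 3 APAP libraries over the control as points below. The classical chains and Cd74 sit between -2.73 and -2.06 in every library, H2-DMa and H2-DMb1 between -1.57 and -1.36, and H2-Oa, H2-Ob and Ciita are above 0 in all 3.

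Ratios taken within a library do not depend on how libraries are scaled. The ratio of Cd74 reads to the summed reads of H2-Aa, H2-Ab1 and H2-Eb1 was 0.973, 0.962 and 1.01 after APAP and 0.976 in the control, so the control lay inside the APAP range. H2-Aa reads per H2-Ab1 read were 0.73, 0.746 and 0.703 after APAP and 0.825 in the control, where the alpha chain was thus slightly more frequent. H2-DM reads per 1000 reads of the 3 classical chains numbered 228, 208 and 190 after APAP and 106 in the control. H2-O reads per 1000 H2-DM reads numbered 68.7, 87.7 and 75.0 against 7.51, a mean 10.3-fold higher after APAP. Ciita reads per 1000 reads of the classical chains numbered 79.3, 59.1 and 49.9 against 5.62. These ratios were not tested.

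**Figure D3:**
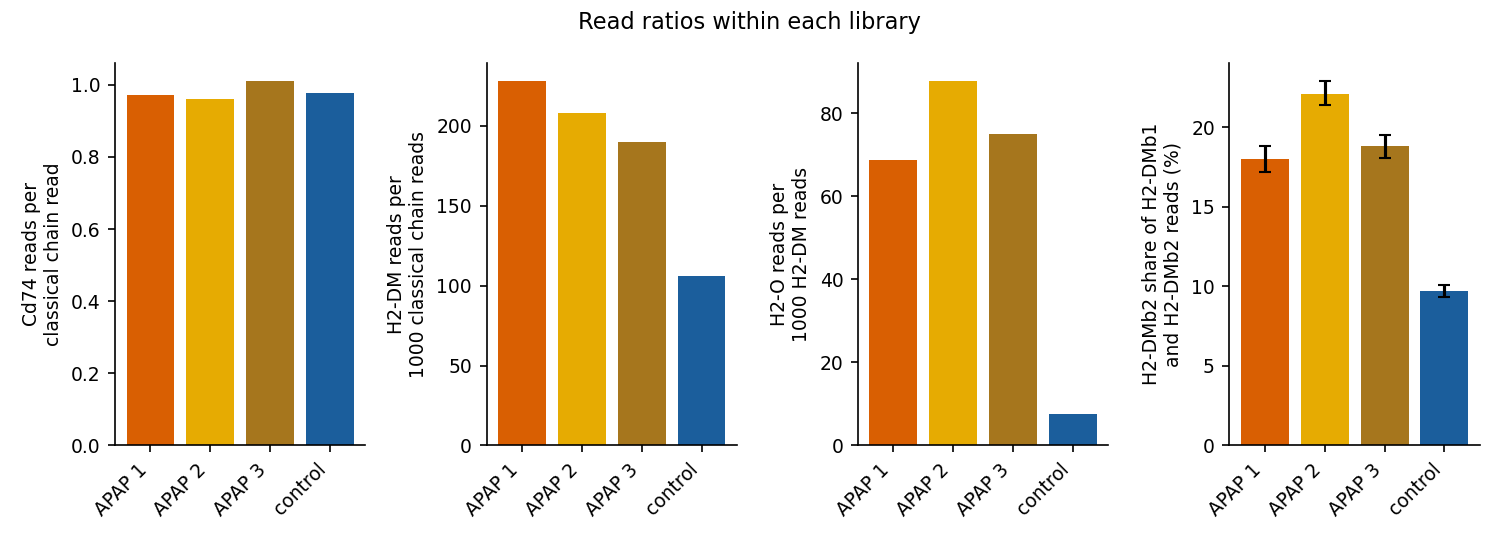
Read ratios within each library, 1 bar per library, with 95% Wilson intervals on the share of H2-DMb2 only. Cd74 per classical chain read is level at 0.962 to 1.01 in all 4 libraries, while H2-DM per 1000 classical reads, H2-O per 1000 H2-DM reads and the H2-DMb2 share are lower in the control (106, 7.51 and 9.72%) than in any APAP library.

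The order of levels per transcript length was the same in both groups. In CPM per kilobase of the principal transcript, Cd74 led at 1288 ± 198 (SD, n = 3) after APAP and 6369 in the control. H2-Ab1 followed at 641 ± 95.6 and 3118, then H2-Aa at 499 ± 70.9 and 2764, and H2-Eb1 at 304 ± 39.0 and 1381. Next came H2-DMb1 at 114 ± 5.94 and 307 and H2-DMa at 111 ± 8.24 and 300.2, then H2-DMb2 at 27.6 ± 5.33 and 32.6. Ciita stood at 18.9 ± 1.85 and 8.62, H2-Ob at 9.27 ± 1.90 and 2.56, and H2-Oa was last at 4.51 ± 0.75 and 0.45. Among neighbours in this order, the APAP libraries of H2-Ab1 and H2-Aa overlapped, as did those of H2-DMb1 and H2-DMa, and the other neighbours did not overlap.

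Among the 3 APAP libraries the members fell into different patterns. H2-DMb2, H2-Oa and H2-Ob were 1.36, 1.31 and 1.36 times as high in the second library as in the mean of the first and the third. For H2-Aa, H2-Ab1, H2-Eb1, H2-DMa, H2-DMb1 and Cd74 that ratio was 1.06 to 1.13. The summed level of 12 B cell markers had a ratio of 1.33, a sum that includes the abundant Bank1 and Cd22, while Cd79a, which encodes a B cell receptor subunit, had a higher ratio of 1.68. Ms4a1, which encodes CD20, stood at 15.1, 23.4 and 16.1 CPM. The summed Kupffer cell markers had 1.10, the conventional dendritic cell markers 0.978, the plasmacytoid dendritic cell markers 1.02, the endothelial markers 1.07, the monocyte markers 1.13 and the T cell markers 1.21. In the first library, the classical chains and Cd74 were at 0.766 to 0.795 of the mean of the others, H2-DMb2, H2-Oa and H2-Ob at 0.732 to 0.829, and H2-DMa and H2-DMb1 at 0.877 and 0.926. The marker sums of Kupffer cells, B cells, sinusoidal endothelium, conventional and plasmacytoid dendritic cells were at 0.808, 0.748, 0.736, 0.83 and 0.876 there, so the first library was low for most of these lists as well as for 9 of the 10 members. The T cell and monocyte sums were at 1.04 and 1.08. Ciita went the other way, at 1.13 times the mean of the others in the first library. With 3 libraries these patterns are descriptions only, and the part of any cell type in them was not tested.

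**Figure D4:**
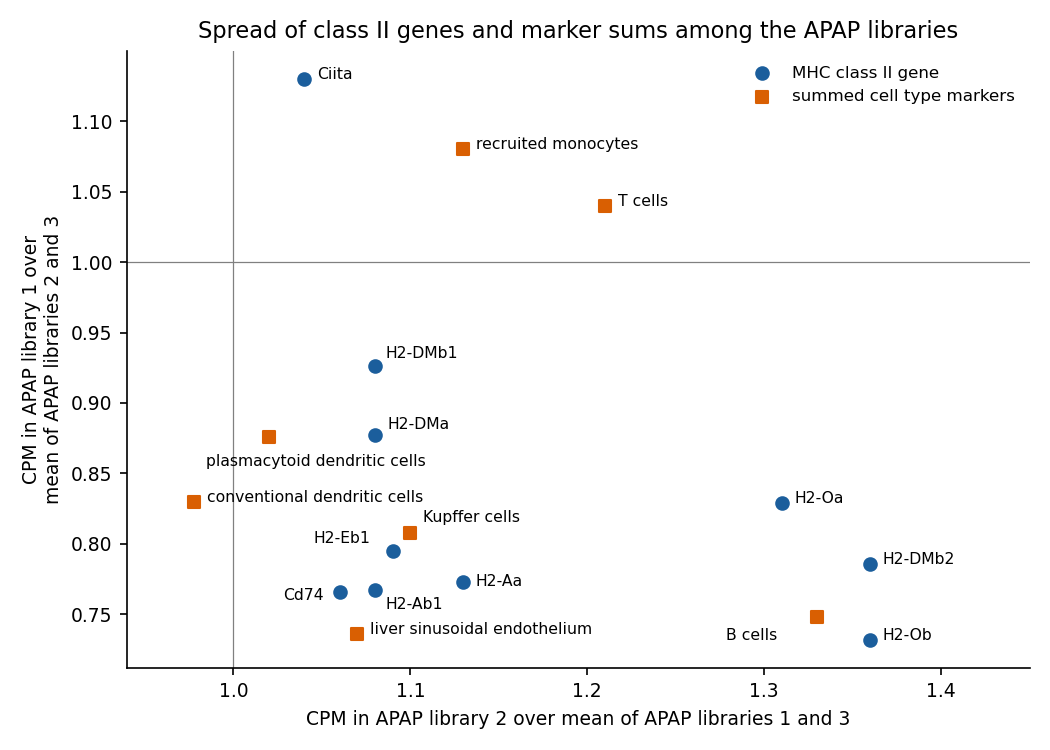
Spread among the APAP libraries: CPM in the second library over the mean of the first and the third (horizontal) and CPM in the first over the mean of the others (vertical), for each MHC class II gene (circles) and each summed marker list (squares). H2-Oa, H2-Ob and H2-DMb2 sit at 1.31 to 1.36 on the horizontal axis with the B cell sum at 1.33, the T cell sum lies at 1.21, and the classical chains and Cd74 sit at 1.06 to 1.13 with the Kupffer cell markers at 1.10.

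Class II promoter factors and genes of the signals that induce them went both ways. Of 18 tested promoter factors and their inducers, 6 rose, 4 fell and 8 did not pass (median log2 fold change 0.15). These counts are near the background of 25.4% higher and 18.9% lower over all genes. The list also holds the signalling inhibitors Socs1 and Socs3, and Socs3 was among the 6 that rose. Rfx5, a subunit of the RFX complex that binds the X box, rose from 7.74 CPM to 14.6 ± 1.94 CPM (SD, n = 3; log2 fold change 0.92, SE 0.20, adjusted p = 0.014, edgeR). Creb1, which binds cyclic AMP response elements, rose by 0.63 on the log2 scale, and the kinase Jak2, which signals from the interferon gamma receptor, by 0.60. Spi1, the myeloid factor PU.1, fell from 736 CPM to 423 ± 17.8 CPM (log2 fold change -0.80, SE 0.10, adjusted p = 0.00256). Without the second APAP library 3 of these genes rose and 2 fell.

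Genes of invariant chain cleavage and peptide supply were lower where they passed. Of 12 tested, 0 rose, 6 fell and 6 did not pass (median -0.45), against 25.4% higher and 18.9% lower over all genes. In 6 of 11 alternative settings 1 gene was called higher. Ctss, the cathepsin that makes the last cuts in the invariant chain, stood at 2814, 3097 and 2978 CPM after APAP and 3969 CPM in the control (log2 fold change -0.42, SE 0.12, adjusted p = 0.0362). Ifi30, a thiol reductase that unfolds antigens, fell from 1161 CPM to 485 ± 24.6 CPM (log2 fold change -1.26, SE 0.10, adjusted p = 0.00112). Cst3, the cathepsin inhibitor cystatin C, fell by 1.23 on the log2 scale, and the proteases Lgmn and Ctsl by 0.60 and 0.49. These falls were smaller than those of the classical chains. Without the second APAP library 2 of the genes fell.

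Among 12 genes of class II ubiquitination and traffic, 1 rose, 3 fell and 8 did not pass (median -0.21). The shares over all genes were 25.4% higher and 18.9% lower, and the 3 falls lay near that share. Marchf1, the ubiquitin ligase that takes class II off the cell surface, stood at 154, 195 and 244 CPM after APAP and 172 CPM in the control, inside the APAP range (adjusted p = 0.526, edgeR). Cd83, whose product opposes Marchf1, fell from 206 CPM to 67.9 ± 9.09 CPM (SD, n = 3; log2 fold change -1.60, SE 0.14, adjusted p = 0.00129). Ap2m1, a clathrin adaptor subunit, and the tetraspanin Cd82 fell by 0.48 and 0.30 on the log2 scale, and Vps11, a subunit of an endosome tethering complex, rose by 0.34. Without the second APAP library 0 rose and 1 fell.

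Of 10 tested genes of co-stimulation and co-inhibition, whose products accompany class II on antigen-presenting cells, 5 fell and 1 rose (median -0.47). The shares over all genes were 18.9% lower and 25.4% higher. The 5 that fell were Cd80, Cd86, Cd40, Lgals9 and the adhesion gene Icam1. Counts given below for co-stimulation cover this whole list. Cd86 stood at 75.9, 88.9 and 110 CPM after APAP and 298 CPM in the control, which gave -1.70 as the log2 fold change (SE 0.19, adjusted p = 0.00199, edgeR). Cd40 fell by 1.20 on the log2 scale, to 13.9 ± 0.56 CPM (SD, n = 3), Cd80 by 0.57 on the log2 scale, and Lgals9, the galectin that binds TIM-3, by 0.78. Icosl, the ligand of ICOS, rose by 0.71 on the log2 scale (SE 0.20, adjusted p = 0.0353), to 21.7, 30.1 and 24.6 CPM against 15.5 CPM. Without the second APAP library 0 rose and 3 fell.

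The invariant chain also serves at the cell surface as a receptor for the cytokine MIF, with Cd44, Cxcr4 and Cxcr2 as partners. Of 6 genes of that group, 3 rose, 0 fell and 3 did not pass (median 0.63), against 25.4% higher and 18.9% lower over all genes. That count and median include the sort marker Cxcr4. Without the first APAP library 1 gene of the group fell. Mif stood at 67.7, 42.2 and 37.2 CPM after APAP and 79.5 CPM in the control (log2 fold change -0.70, SE 0.31, adjusted p = 0.119, edgeR). Ddt, a relative of Mif, rose by 0.63 on the log2 scale, and Ackr3, an atypical receptor, stayed under 0.5 CPM in every library. Cxcr4 rose by 1.36 (SE 0.26, adjusted p = 0.00978), which is no finding, since Cxcr4 is the sort marker. Cxcr2, known from neutrophils, stood at 14.5, 11.8 and 2.42 CPM against 0.089 CPM, so its level differed widely between APAP libraries.

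Markers of cells that carry class II differed between the groups in both directions: Kupffer cell markers were mostly lower after APAP, and B cell markers mostly higher. Over all genes 25.4% were higher and 18.9% lower. Of 12 Kupffer cell markers, 0 rose and 10 fell (median -1.19), none was at 0 counts in the control, and their summed level ran from 14250 to 17700 CPM after APAP against 36130 CPM in the control. Without the third APAP library 1 of them rose. Clec4f fell by 1.77 on the log2 scale (SE 0.27), Vsig4 by 1.39 and Timd4 by 1.70. Fcna, at -2.46, and Folr2, at -2.11, fell the most in this list, against -2.47 to -2.18 for the classical chains. All falls in the list but that of Fcna were smaller than those of the classical chains. Marco, at 0.615, and Spic, at -0.18, did not pass. Of 12 B cell markers, 10 rose and 1 fell (median 3.42, also with genes at 0 counts in the control at their lower bound); without the second APAP library 0 fell. Cd79a and Ms4a1 stood at 3.36 and 1.74 CPM in the control and at 36.6 ± 11.8 and 18.2 ± 4.57 CPM after APAP (SD, n = 3). Cr2 had 0 counts in the control. The summed B cell level ran from 335 to 492 CPM after APAP against 312 CPM, the sum in the control being mostly Bank1 at 196 CPM, the marker that fell, and Cd22 at 80.2 CPM. The part of B cells and Kupffer cells in the class II values was not tested.

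Of 12 conventional dendritic cell markers, 8 rose and 1 fell (median 1.03), the sum running from 144 to 186 CPM after APAP against 125 CPM; without the first APAP library 2 fell. Flt3 and Zbtb46 rose by 3.36 and 1.43 on the log2 scale, and Xcr1 rose from 1.71 CPM to 3.43 ± 0.31 CPM (SD, n = 3). Batf3, the marker that fell, did so by 1.28 on the log2 scale and made up 57.3 CPM of the control sum. Of 8 plasmacytoid dendritic cell markers, 7 rose and 0 fell (median 3.55), the sum running from 171 to 201 CPM against 94.04 CPM, of which Tcf4 alone made up 88.65 CPM. Siglech, at 0 counts in the control and 18.2 ± 5.15 CPM after APAP (SD, n = 3), was at least 273-fold higher on a floor of 3 counts, and Ccr9 and Tcf4 rose by 2.34 and 0.46. Of 10 recruited monocyte markers, 9 rose and 1 fell (median 4.42), from a sum of 196 CPM to 706 to 878 CPM, with Plac8, the marker that fell, at 148 CPM of that control sum, Chil3 and Vcan at 0 counts in the control and Ccr2, Ly6c2 and Cx3cr1 up by 4.60, 2.42 and 4.79. Both dendritic cell lists and the monocyte list thus mostly rose where the classical chains fell, against 25.4% higher and 18.9% lower over all genes. The part of these lists in the class II values was not tested.

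Sinusoidal endothelial cells can carry class II as well. Of 10 of their markers, 1 rose and 4 fell (median -0.31, and 0 rose when APAP library 2 or 3 was left out). Their sum ran from 992 to 1410 CPM after APAP against 2135 CPM in the control. Cdh5, which fell by 0.99 on the log2 scale, alone made up 474 to 748 CPM of it after APAP and 1268 CPM in the control. Clec4g fell by 0.87 on the log2 scale (SE 0.10), and Stab2, at 264, 325 and 366 CPM against 407 CPM, and Lyve1, at 8.96, 8.95 and 17.6 CPM against 12.9 CPM, did not pass. Of 12 T cell markers, 9 rose and 0 fell (median 0.82; 5 rose without the second APAP library), from a sum of 84.1 CPM to 140 to 186 CPM. Cd3g rose by 0.73 on the log2 scale, and Cd3e and Cd3d, at 0.59 and 0.58, did not pass (adjusted p = 0.059 and 0.056, edgeR). The endothelial and T cell counts stand beside 25.4% higher and 18.9% lower over all genes.

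**Figure D5:**
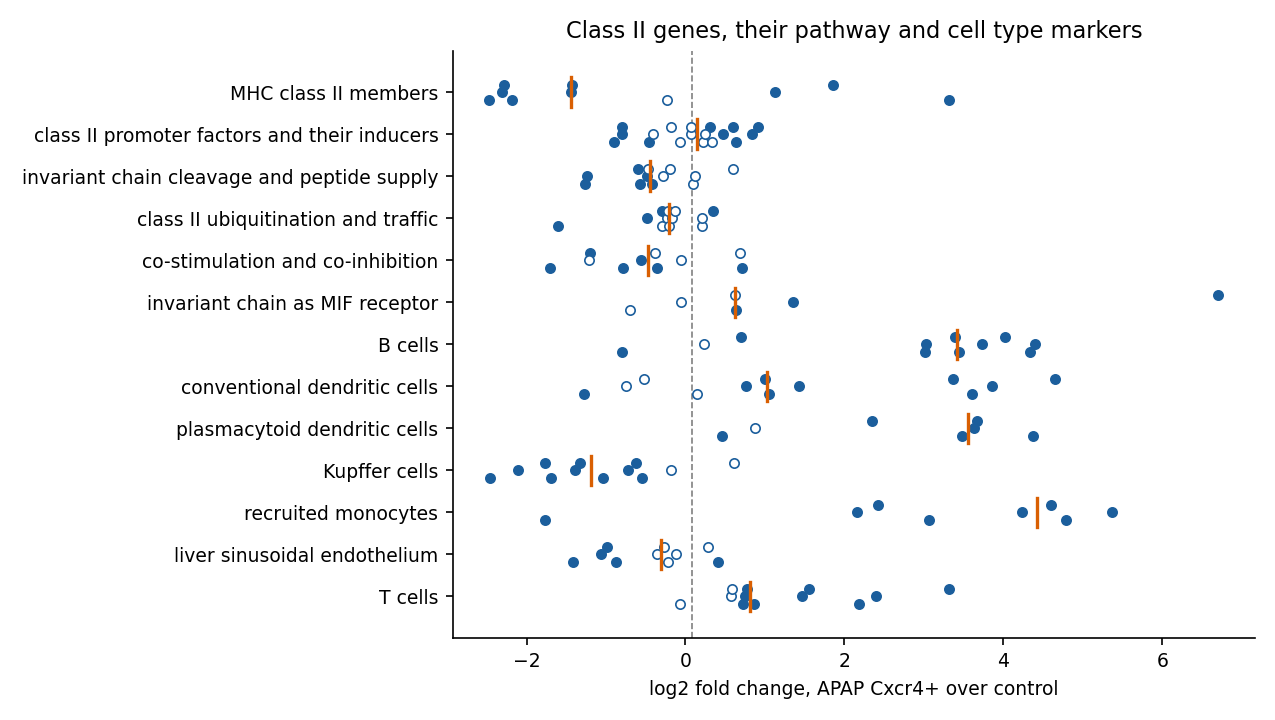
Log2 fold change, APAP Cxcr4+ over control, of each tested gene by list. Filled points passed the edgeR test and open points did not. Orange lines are list medians, and the dashed line is the median of all genes (0.08). No points are drawn for 4 genes at 0 counts in the control, but the medians include them. The MHC class II median is at -1.44 and the Kupffer cell median at -1.19, while the B cell and plasmacytoid dendritic cell medians are at 3.42 and 3.55.

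Outside the members, the gene closest in pattern to the classical chains was Rab20, a GTPase of phagosome and endosome traffic. Likeness was measured as the root mean square difference of log2 CPM, centred on each gene's mean, from the mean profile of H2-Aa, H2-Ab1 and H2-Eb1 over the 4 libraries, among 5076 abundant genes. Rab20 differed by 0.0501, at 21.3, 25.6 and 26.8 CPM after APAP and 116.5 CPM in the control. C1qa, a complement C1q chain, followed at 0.0816, then Marcksl1 at 0.0846, Tmem176b at 0.0857 and Wfdc17 at 0.0995. On the same measure Cd74 differed by 0.0286, H2-DMa by 0.388, H2-DMb1 by 0.401 and H2-Oa by 2.07. With 4 libraries, this likeness rests mostly on the size of the fall.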

How the data were processed

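The deposited values are raw read counts per Ensembl gene, 1 column per library; the submitters' processing notes name HISAT2, Subread and the mm39 build. For versions, annotation, strand and shared reads the entry is: not given in the sources used here. Thus reads of near-identical or overlapping genes may be split. Numbers 1 to 3 for the APAP libraries follow the column order and are names only. Symbols were matched for 28926 of 29247 IDs. The other IDs took 0.141% to 0.562% of counts. Every pair of libraries differed by more than sampling noise (chi-square per degree of freedom 16.5 to 405).

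In R 4.3.3, edgeR 4.0.16 with filterByExpr (minimum count 10, minimum total 15), TMM factors (1.04, 1.03, 1.03 and 0.90 for the control) and a quasi-likelihood F test with group as its only term were used, with adjustment over all genes tested. Only the APAP group supplies replicates (residual degrees of freedom 2, prior 3.8), so an equal spread is taken for the control. The script was tested on simulated data. Alternatives used other scalings and filters, DESeq2 1.42.0, limma-voom (limma 3.58.1), a test against a 2-fold change (log2 of 1), removal of the trend over GENCODE M21 exon length (99.7% of genes had one) and each APAP library left out. Levels per kilobase use the longest principal transcript. The members, lists and tests were chosen with earlier results of these data known. All members are named, as are, per pathway list, the first gene and up to 4 with the smallest p, per cell type list the first 3, and the 5 genes most like the classical chains (mean log2 CPM of at least 5); values of some genes under this rule are not reported here. Bank1, Batf3, Cd22, Cdh5, Cr2, Fcna, Folr2, Icam1, Marco, Spic, Plac8, Chil3, Vcan, Socs1 and Socs3 were named after their values were seen. Marchf1 was read under its older symbol, and Cd58 was not matched.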

Additional observations from a re-analysis of the deposited data

How the results depend on the processing

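The 9 called members kept their direction and their call in all of their alternatives, except Ciita (1.13, adjusted p = 0.303) against a 2-fold change; there 2 members rose and 6 fell, and in the other 10 settings that kept H2-DMb1 and H2-DMb2 apart 3 rose and 6 fell. H2-Aa ran from -2.53 to -2.36, Cd74 from -2.39 to -2.02 and H2-Oa from 3.18 to 3.64. H2-DMb2, at -0.24, turned to 0.04 (adjusted p = 0.898) with the length trend removed and passed at -1.26 when summed with H2-DMb1. Over all genes 8295 were called, 5001 to 9380 with 1 APAP library left out and 1379 against a 2-fold change.

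Counts below are higher, then lower. Leaving out 1 APAP library gave 3 to 6 and 2 to 5 promoter factors, 0 to 1 and 2 to 7 peptide supply genes, 0 to 1 and 1 to 4 traffic genes, 0 to 1 and 3 to 6 co-stimulation genes, and 2 to 3 and 0 to 1 MIF receptor genes. It gave 10 to 11 and 0 to 1 B cell, 6 to 8 and 1 to 2 conventional dendritic cell, 0 to 1 and 8 to 10 Kupffer cell, 0 to 1 and 3 to 5 endothelial markers, and 5 to 10 T cell markers higher. Against a 2-fold change the counts were 0 and 0 for promoter factors, 0 lower for peptide supply, 0 and 1 for traffic, 0 and 1 for co-stimulation, 0 higher for MIF receptor genes, 0 lower for B cells, 4 and 0 for conventional dendritic cells, 3 lower for Kupffer cells, 0 and 1 for endothelium and 4 higher for T cells. With the length trend removed, 3 promoter factors, 1 peptide supply, 0 traffic, 0 co-stimulation and 0 endothelial genes were higher, and 1 MIF receptor and 1 plasmacytoid dendritic cell gene were lower. DESeq2's Wald test called 1 peptide supply and 1 Kupffer cell gene higher; limma-voom 1 peptide supply, 0 co-stimulation and 0 endothelial genes; no count filter 1 peptide supply gene; upper-quartile factors 0 endothelial genes higher and 2 conventional dendritic cell genes lower. Where counts moved the cause was not tested, beyond the smaller sample and the stricter null that these settings bring by construction.

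No paired analysis was possible because the control is a single library and the columns carry no replicate numbers. With 1 control library, an error in it would touch every fold change, and among the members H2-Oa had the fewest control counts, 22.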

Other observations

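The count table also holds class II loci outside the members, picked here after their values were seen. H2-Eb2, a second I-E beta gene, stood at 3.34, 4.69 and 3.14 CPM after APAP and 0.49 CPM in the control, where it rests on 22 counts. Its log2 fold change was 2.92 (SE 0.40, adjusted p = 0.00353, edgeR), so it rose where H2-Eb1 fell. Like H2-Oa, H2-Ob, H2-Aa, H2-DMa, H2-DMb1 and H2-DMb2, it was highest in the second APAP library. H2-Ea-ps, the I-E alpha locus, had 3 counts in the second APAP library and 0 in the others.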
